A study of Mus musculus with 4 samples.

Results

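The genes described here are 44 genes of the ATF4 branch of the integrated stress response and of the amino acid and one-carbon metabolism that it controls, chosen by name. With single gene symbols from the platform annotation and the brightest probe set per gene, 43 of the 44 were measured, among 19938 genes in all; Pycr1 was not analysed here. They fall into 18 stress regulators, 9 genes of serine and one-carbon metabolism, 7 measured genes of amino acid synthesis and 9 amino acid transporters. The samples came from NIH3T3 cells, an established line of mouse embryo fibroblasts, as 1 stable clone (p19) that carries the integrated constructs pBI-EGFP-FLAG-mCtcfl and pTA-N. All 4 arrays shared the clone and both constructs. For the 2 Ctcfl arrays, cells were kept 48 h in medium without doxycycline, which switches on FLAG-tagged mouse Ctcfl in this Tet-Off system. The 2 control arrays had 2 µg/ml doxycycline, which represses it. Ctcfl encodes a testis-expressed paralog of the insulator protein CTCF. Doxycycline, an antibiotic that blocks bacterial and mitochondrial ribosomes, was in the control medium alone, so its removal and the induction of Ctcfl cannot be told apart. The name of the Ctcfl construct also holds EGFP. No array had EGFP without Ctcfl, so any part of EGFP cannot be told apart either.

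ATF4 is a basic leucine zipper transcription factor. Its protein is made when stress kinases phosphorylate the alpha subunit of the initiation factor eIF2, which slows general translation and favours reading of the ATF4 coding frame. With C/EBP partners it binds composite elements in the genes for amino acid carriers, for enzymes that make serine, glycine, asparagine, proline and cysteine, and for the mitochondrial folate enzymes that pass on one-carbon units. ATF4 activity is set largely by translation, so the mRNA level of Atf4 is only one measure of the pathway. In fibroblasts in culture the pathway is known to adjust amino acid supply to growth.

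Such a composite element was looked for as the letters TGATGNAA on both strands, in windows running from 250 bases before to 50 bases after the transcription start, taken from RefSeq (build GRCm38.p6). Of the 43 measured members, 37 had a window. The element was in 10 of these 37 genes (27%), against 3.62% of the 15614 measured genes with a window; since the list was put together largely from known ATF4 targets, this share describes the list and is not a result of the experiment. The windows of 4 members with the element are shown in full, because their expression is described below, with that of Gpt2, which had the smallest p of any member and no match in its window. Capitals mark the matches, and each line reads 5′ to 3′ on the strand of the gene.
Slc7a11 (chr3:50443564-50443863, minus strand): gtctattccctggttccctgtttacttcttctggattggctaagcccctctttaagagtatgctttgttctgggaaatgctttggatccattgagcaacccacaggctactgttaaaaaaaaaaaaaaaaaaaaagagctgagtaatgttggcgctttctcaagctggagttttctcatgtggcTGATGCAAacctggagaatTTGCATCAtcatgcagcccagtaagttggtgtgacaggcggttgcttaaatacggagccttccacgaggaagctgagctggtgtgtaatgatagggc
Pck2 (chr14:55540016-55540315, plus strand): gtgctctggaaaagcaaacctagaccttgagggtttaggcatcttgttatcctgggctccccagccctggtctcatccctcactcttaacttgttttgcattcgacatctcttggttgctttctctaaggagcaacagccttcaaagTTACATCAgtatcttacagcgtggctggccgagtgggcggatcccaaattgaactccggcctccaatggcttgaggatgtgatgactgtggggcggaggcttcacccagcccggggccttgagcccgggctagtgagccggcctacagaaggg
Trib3 (chr2:152344011-152344310, minus strand): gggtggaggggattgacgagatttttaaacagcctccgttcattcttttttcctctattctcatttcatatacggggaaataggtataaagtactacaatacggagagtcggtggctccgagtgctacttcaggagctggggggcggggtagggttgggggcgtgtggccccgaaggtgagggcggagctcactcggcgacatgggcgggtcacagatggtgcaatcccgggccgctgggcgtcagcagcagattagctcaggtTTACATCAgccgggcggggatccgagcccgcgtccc
Asns (chr6:7693160-7693459, minus strand): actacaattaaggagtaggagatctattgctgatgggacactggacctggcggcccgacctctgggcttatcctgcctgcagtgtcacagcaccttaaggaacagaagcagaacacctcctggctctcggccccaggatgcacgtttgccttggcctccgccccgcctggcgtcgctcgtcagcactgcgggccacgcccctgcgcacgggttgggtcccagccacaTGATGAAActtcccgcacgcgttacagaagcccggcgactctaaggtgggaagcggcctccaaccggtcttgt
Gpt2 (chr8:85492326-85492625, plus strand): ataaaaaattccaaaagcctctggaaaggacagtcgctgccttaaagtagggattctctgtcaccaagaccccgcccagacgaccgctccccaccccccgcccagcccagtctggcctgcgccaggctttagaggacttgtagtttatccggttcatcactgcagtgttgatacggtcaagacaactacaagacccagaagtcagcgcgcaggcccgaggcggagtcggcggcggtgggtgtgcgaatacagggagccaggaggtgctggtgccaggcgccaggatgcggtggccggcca

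The Slc7a11 window held 2 matches on opposite strands, with first bases 66 and 47 bases before the start. Pck2 had 1 match 103 bases before the start, Asns 1 match 23 bases before it and Trib3 1 match 15 bases into the transcribed part. The other 6 members with a match were Atf3, Chac1, Fgf21, Got1, Nupr1 and Slc1a4. The 10 members with the element had a median log2 change of -0.14, 7 of them lower in the Ctcfl arrays, and the 27 without it had a median of -0.18, 22 of them lower. The other 6 measured members, Eif4ebp1, Aldh1l2, Cth, Slc7a3, Slc7a5 and Slc1a5, had no window and are in neither group. Their median was -0.29, and all 6 were lower. A match is a description of letters and shows neither binding nor its absence.

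**Figure D1:**
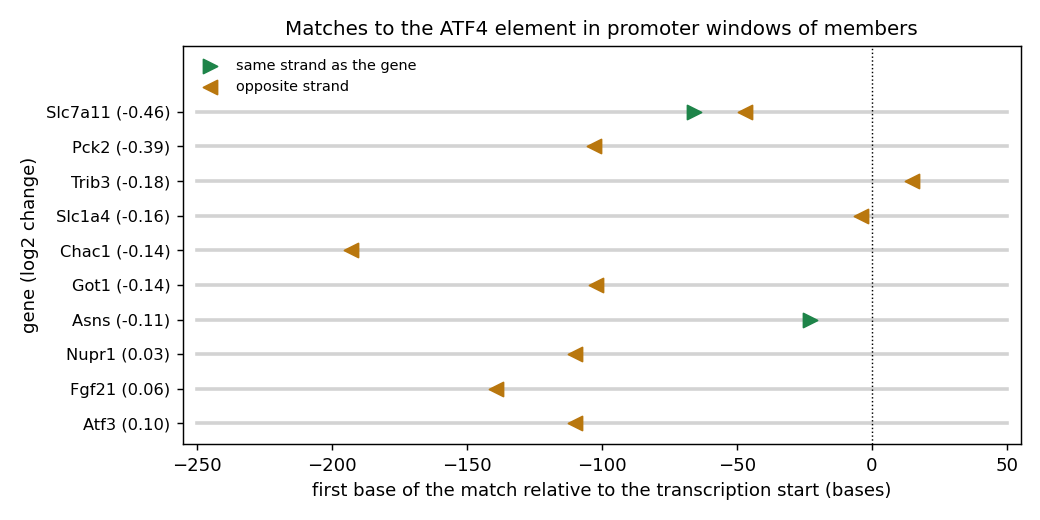
Positions of TGATGNAA matches in the promoter windows of the 10 members that hold one. The horizontal axis is the distance of the first base of each match from the transcription start in bases, grey bars span the 300-base window, triangles point along the strand of the match, and genes are ordered by log2 change (Ctcfl minus control, in brackets), from Slc7a11 at -0.46 to Atf3 at 0.10.

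Each sample was hybridised to 1 Affymetrix array, and all values below are log2 RMA values, the deposited measure of a probe set's brightness after background correction and quantile normalisation. Signed values in brackets are log2 changes, Ctcfl minus control. Ctcfl itself, the check of the labels, read 10.37 and 10.35 in the Ctcfl arrays, against 7.77 and 7.71 in the control arrays. Its log2 change was 2.62 (SE 0.08, adjusted p = 0.000538 by limma). The control readings of Ctcfl lay above the array medians of 5.20 to 5.24, so the values do not show it absent there. The source of that signal was not tested. The 2 Ctcfl arrays correlated at 0.996 (Pearson, over genes) and the 2 control arrays at 0.997. Of 10 fibroblast markers, 9 read 7.48 or more on every array, above the array medians of 5.20 to 5.24. The exception was Fap, with readings of 3.30 and 3.34 in the Ctcfl arrays and 3.46 and 3.48 in the control arrays. The 10 readings summed to 93.79 and 93.42 in the Ctcfl arrays and to 95.3 in both control arrays, and 7 of the markers had both Ctcfl arrays below both control arrays, where 20.6% of all genes do so, among them Pdgfrb (-0.56), Col3a1 (-0.38) and Pdgfra (-0.29). The 23 measured markers of epithelial, immune, endothelial and skeletal muscle cells read 3.41 to 6.71 in the Ctcfl arrays and 3.24 to 6.62 in the control arrays, and 2 of them had both Ctcfl arrays below and 2 above both control arrays, where 20.6% of all genes lie each way. The part of these marker differences in the results below was not tested. In samples of whole cultures, fewer cells of a type and less RNA per cell cannot be told apart. Whether the replicates of a group were grown separately is not given, so the p-values rest on a spread between arrays that may be technical, and the small number of arrays limits the precision.

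Most of the list had lower mean values when Ctcfl was induced, though no member passed the test over all genes. Of the 43 measured members, 35 had a lower mean in the Ctcfl arrays and 8 a higher one, with a median log2 change of -0.18, against a median of 0 and 48.6% lower over all genes. Both Ctcfl arrays lay below both control arrays for 34 members, where 20.6% of all genes do so, and above both for 5 members, where 20.6% of all genes do so; the groups overlapped for 4. The differences were small. They ran from -0.64 for Cth to 0.16 for Eif2ak2, and 2 members, Cth and Aldh1l2, were at least 1.5-fold lower, where 0.206% of all genes were. No member passed an adjusted p of 0.05 by limma over all genes, where 0.0451% of genes passed; the lowest adjusted p was 0.152, for Gpt2. At an unadjusted p under 0.05 there were 15 members lower and 0 higher, where 5.32% of all genes were lower and 5.36% higher. When the variances were allowed to follow intensity and were estimated robustly, 11 members passed at an adjusted p of 0.05, all 11 lower, where 1.3% of all genes were called lower and 1.1% higher. These 11 were Stc2, Atf5, Aldh1l2, Shmt2, Mthfd2, Gpt2, Cth, Pck2, Slc6a9, Slc1a5 and Slc7a1. By ordinary t statistics no member passed, and 14 had an unadjusted p under 0.05, where 1940 of all 19938 genes did.

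**Figure D2:**
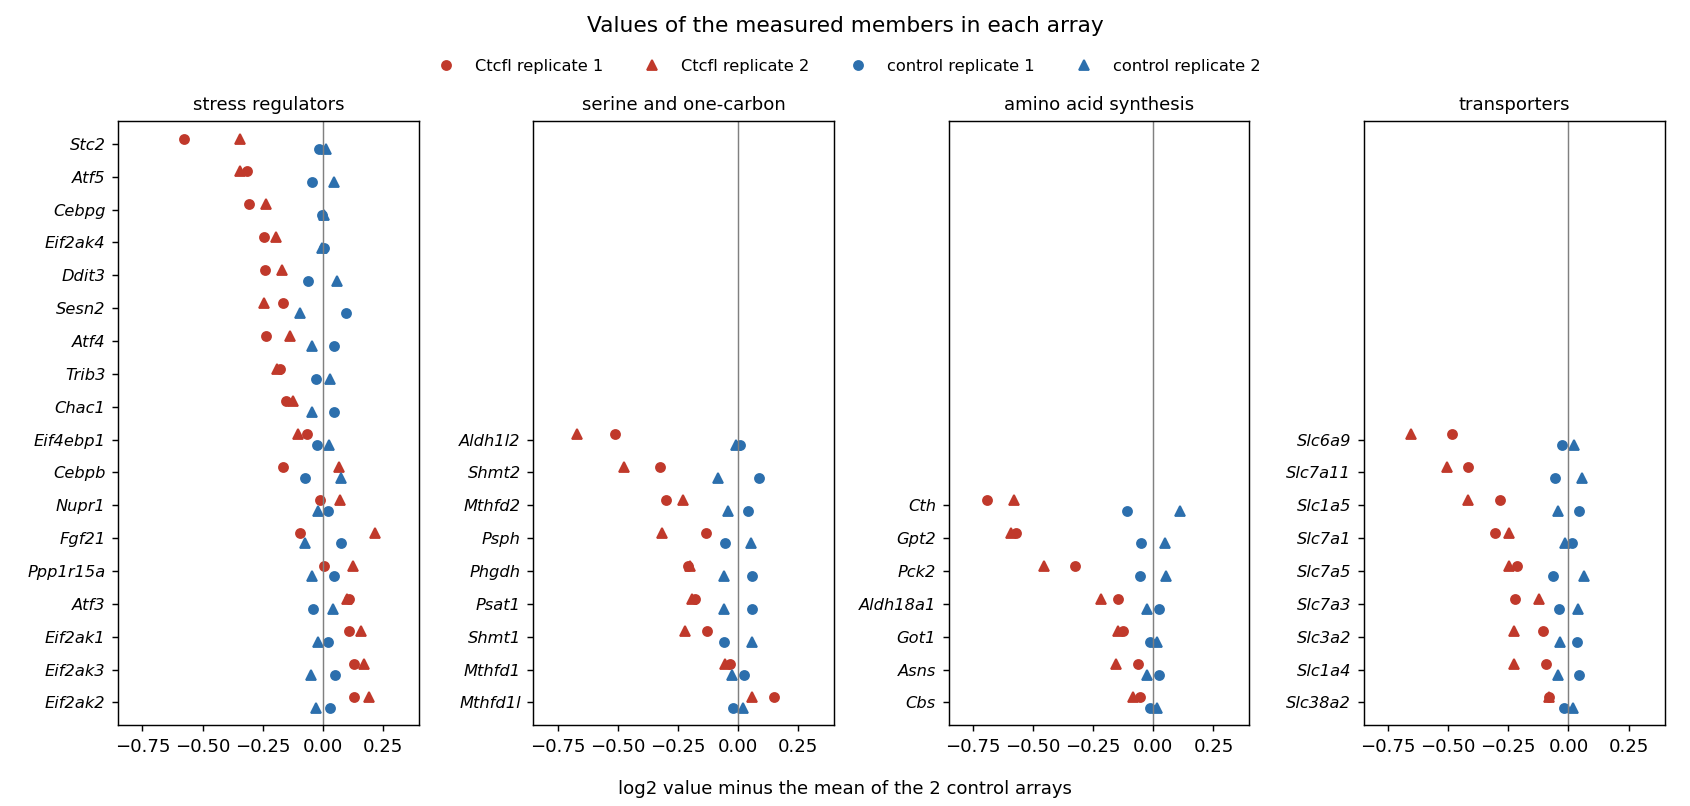
Values of the 43 measured members in each array, by branch. The horizontal axis is the log2 value minus the mean of the 2 control arrays, with Ctcfl arrays in red just above control arrays in blue, and circles and triangles for replicates 1 and 2. Both red symbols lie left of both blue ones for all 9 transporters and all 7 amino acid synthesis genes. The same holds for 8 of 9 serine and one-carbon genes and 10 of 18 stress regulators, and for 20.6% of all genes.

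All 9 transporters (median -0.23) and all 7 amino acid synthesis genes (median -0.18) had both Ctcfl arrays below both control arrays, as did 8 of the 9 serine and one-carbon genes (median -0.20). Among the 18 stress regulators the count was 10, with 4 above and 4 overlapping, and the median was -0.11. Over all genes, 20.6% had both Ctcfl arrays below both control arrays and 20.6% above. Differences between the branches were not tested. The SD between the 2 arrays of a group had a median over members of 0.050 in the Ctcfl group and 0.057 in the control group.

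Of the sensors at the head of the pathway, the 4 eIF2-alpha kinases had differences of both signs, and none passed the test. Eif2ak4 (GCN2, which senses uncharged tRNA) read 7.16 and 7.21 in the Ctcfl arrays, against 7.41 and 7.40 in the control arrays, a log2 change of -0.22 (SE 0.08, unadjusted p = 0.0366, adjusted p = 0.441 by limma). Eif2ak1 (HRI, which responds to low haem and to mitochondrial stress) read 8.58 and 8.63 in the Ctcfl arrays and 8.49 and 8.45 in the control arrays. Eif2ak2 (PKR, activated by double-stranded RNA) read 7.52 and 7.58 with Ctcfl, against 7.42 and 7.36 in the control arrays. Eif2ak3 (PERK, the kinase of the endoplasmic reticulum) had 7.42 and 7.46 in Ctcfl arrays and 7.34 and 7.24 in control arrays. Both Ctcfl arrays lay below both control arrays for Eif2ak4, and above both for Eif2ak1, Eif2ak2 and Eif2ak3. Over all genes, 20.6% lay each way. The log2 changes of these 3 kinases were 0.14 (Eif2ak1), 0.16 (Eif2ak2) and 0.15 (Eif2ak3), with intervals that include 0 and adjusted p-values from 0.544 to 0.596 by limma.

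Atf4 mRNA was slightly lower. It read 8.61 and 8.71 in the Ctcfl arrays, against 8.89 and 8.80 in the control arrays, without overlap but with a gap of 0.09 between the nearest arrays. The log2 change was -0.18 (95% interval -0.40 to 0.03, adjusted p = 0.517 by limma). Atf5, a related zipper factor translated under the same control, read 7.34 and 7.31 in Ctcfl arrays and 7.61 and 7.70 in control arrays. Its groups stood 0.27 apart at their nearest, and its log2 change was -0.33 (SE 0.09, adjusted p = 0.341 by limma, or 0.0461 with the intensity trend and robust variances). Cebpg, which pairs with ATF4 at composite elements, read 7.32 and 7.39 with Ctcfl, against 7.62 and 7.63 in the control arrays (-0.27, adjusted p = 0.385 by limma). The other C/EBP partner on the list, Cebpb, had overlapping groups and a log2 change of -0.05. Atf3, a factor induced by many stresses, had a log2 change of 0.10 (adjusted p = 0.689 by limma). Both Ctcfl arrays were above both control arrays, with a gap of 0.06, and Atf3 read below the array median on every array.

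The effectors that ATF4 switches on under prolonged stress had differences of both signs. Ddit3 (CHOP, a zipper factor linked to cell death) read 6.93 and 7.0 in Ctcfl arrays and 7.11 and 7.23 in control arrays, and Trib3, a pseudokinase that holds back Akt and ATF4, read 6.83 and 6.82 in Ctcfl arrays and 6.98 and 7.04 in control arrays. The groups did not overlap for either gene, with log2 changes of -0.20 for Ddit3 and -0.18 for Trib3 and adjusted p-values of 0.484 and 0.491 by limma. Stc2, a secreted glycoprotein induced by stress, had the largest difference among the regulators. Its values were 6.16 and 6.39 in Ctcfl arrays, against 6.72 and 6.75 in control arrays, so Ctcfl replicate 1 was the lower of the Ctcfl pair by 0.23 and the groups were still apart. The log2 change of Stc2 was -0.46 (SE 0.10, 1.38-fold lower, adjusted p = 0.29, or 0.034 with the intensity trend and robust variances). Sesn2, which restrains mTORC1 when leucine is scarce, had a log2 change of -0.20, Chac1, which degrades glutathione, had a log2 change of -0.14, and Eif4ebp1, the inhibitor of cap-dependent translation, had a log2 change of -0.09, all without overlap between the groups and none past the threshold. Nupr1 (0.03), Ppp1r15a (0.07, the GADD34 subunit that returns eIF2-alpha to its unphosphorylated state) and Fgf21 (0.06, a secreted metabolic hormone) had overlapping groups. Fgf21 read 4.59 and 4.90 in the Ctcfl arrays and 4.76 and 4.61 in the control arrays, below the array medians, and no detection calls were used.

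**Figure D3:**
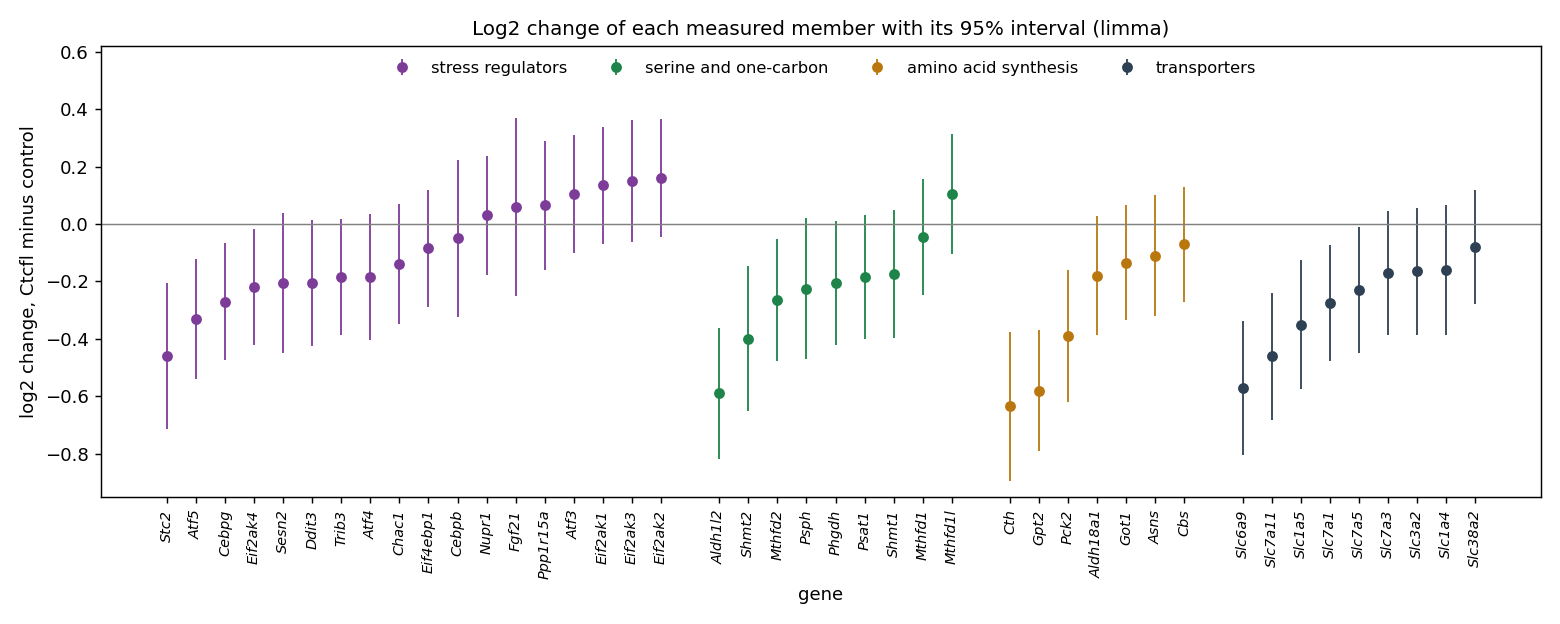
Log2 change (Ctcfl minus control) of the 43 measured members with the 95% interval from limma, grouped by branch and ordered within it. The horizontal line is no difference, and the intervals of 15 members lie wholly below it and of none above it.

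In serine synthesis, the 3 enzymes that lead from glycolysis to serine were lower by similar amounts. Phgdh, which takes the first step, read 9.78 and 9.79 in the Ctcfl arrays, against 10.05 and 9.93 in the control arrays (-0.20, adjusted p = 0.479 by limma). Psat1, the transaminase of the second step, had a log2 change of -0.18. Psph, the phosphatase that releases serine, read 7.24 and 7.06 in Ctcfl arrays and 7.32 and 7.43 in control arrays (-0.23, adjusted p = 0.49). The groups were separate in each of the 3, and no single enzyme passed.

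The larger differences of this branch were in folate enzymes of mitochondria, where serine gives up its one-carbon unit. Aldh1l2, the mitochondrial formyltetrahydrofolate dehydrogenase that yields carbon dioxide and NADPH, read 8.43 and 8.27 with Ctcfl, against 8.95 and 8.93 in the control arrays. The groups were 0.50 apart at their nearest, and the change was -0.59 (SE 0.09, 1.51-fold lower, adjusted p = 0.169, or 0.000218 with the intensity trend and robust variances). Shmt2, which splits serine into glycine and a one-carbon unit, read 9.51 and 9.36 in Ctcfl arrays and 9.92 and 9.75 in control arrays (-0.40, SE 0.10, adjusted p = 0.341, or 0.00517 with the trend). Mthfd2, which oxidises that unit in mitochondria, read 9.61 and 9.68 in Ctcfl arrays and 9.95 and 9.87 in control arrays (-0.27, SE 0.09, adjusted p = 0.402, or 0.0288 with the trend). Mthfd1l, which releases formate for export, went against the rest of the branch, with 9.03 and 8.94 in the Ctcfl arrays and 8.86 and 8.90 in the control arrays (0.10, adjusted p = 0.694). The cytosolic counterparts had smaller differences, -0.17 for Shmt1 and -0.04 for Mthfd1, whose groups were only 0.01 apart.

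Sorted by compartment, a grouping made after the values were seen and therefore only described, 7 mitochondrial genes of the route from serine to formate and of its carriers had log2 changes of -0.59 to 0.10. They include Mthfd2l (-0.16), the folate carrier Slc25a32 (-0.20) and the serine carrier Sfxn1 (-0.18). Of 6 other mitochondrial genes that feed one-carbon units into folate, the glycine cleavage genes Gldc (0.08), Amt (-0.02) and Dld (0.06) and the dimethylglycine dehydrogenase gene Dmgdh (0.06) had overlapping groups, and Gcsh (-0.14) and Sardh (-0.42) had both Ctcfl arrays below both control arrays. Over these 13 mitochondrial genes the median was -0.16. The 3 cytosolic counterparts, Shmt1, Mthfd1 and Aldh1l1, ranged from -0.17 to 0.04. Aldh1l1, Gldc, Amt and Dmgdh read below the array medians of 5.20 to 5.24 on every array, and no detection calls were used. Small changes in these dim genes therefore say little about either compartment.

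**Figure D4:**
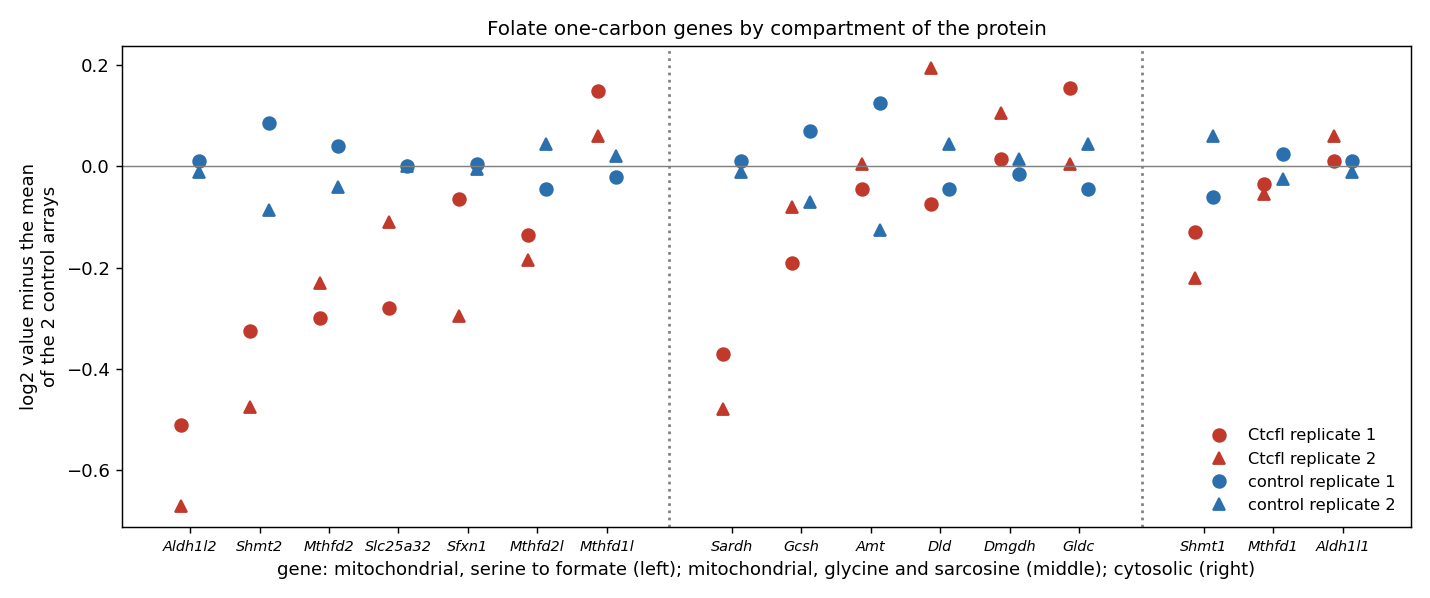
Folate one-carbon genes by the compartment of their protein, with 7 mitochondrial genes from serine to formate on the left, 6 of glycine cleavage and sarcosine breakdown in the middle and 3 cytosolic counterparts on the right. The vertical axis is the log2 value minus the mean of the 2 control arrays, with Ctcfl arrays in red left of control arrays in blue; both Ctcfl arrays lie below both control arrays for every gene on the left except Mthfd1l, for Sardh and Gcsh in the middle, and for Shmt1 and Mthfd1.

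Among the amino acid enzymes, 3 stood well below their controls and 4 only slightly. Cth, cystathionine gamma-lyase, which makes cysteine from cystathionine, had the largest difference of any member. It read 7.13 and 7.24 in Ctcfl arrays, against 7.71 and 7.93 in control arrays, a log2 change of -0.64 (SE 0.11, 1.55-fold lower, adjusted p = 0.185, or 0.000973 with the intensity trend and robust variances). Gpt2, the mitochondrial alanine transaminase, read 7.48 and 7.46 with Ctcfl, against 8.0 and 8.10 in the control arrays. The 2 Ctcfl arrays were nearly equal and 0.52 below the nearer control array, and the change was -0.58 (SE 0.09, adjusted p = 0.152, or 0.000529 with the trend). Pck2, the mitochondrial form of phosphoenolpyruvate carboxykinase, read 7.04 and 6.91 in Ctcfl arrays and 7.31 and 7.42 in control arrays (-0.39, SE 0.09, adjusted p = 0.312, or 0.0327 with the trend).

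The remaining 4 enzymes were closer to their controls. Aldh18a1, which starts proline synthesis from glutamate, read 9.97 and 9.90 in Ctcfl arrays and 10.14 and 10.09 in control arrays (-0.18, adjusted p = 0.509 by limma). Got1, the cytosolic aspartate transaminase, read 10.28 and 10.26 in Ctcfl arrays and 10.39 and 10.42 in control arrays (-0.14, adjusted p = 0.593). Asns, asparagine synthetase and a textbook ATF4 target, read 11.34 and 11.25 in Ctcfl arrays and 11.43 and 11.38 in control arrays. Its groups were 0.04 apart and its log2 change of -0.11 had a 95% interval of -0.32 to 0.10, which includes no difference. Cbs, which acts just before Cth in the same route, had a log2 change of -0.07 (interval -0.27 to 0.13).

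All 9 carriers had both Ctcfl arrays below both control arrays, where 20.6% of all genes do so, with log2 changes of -0.57 to -0.08. None passed by limma over all genes (lowest adjusted p 0.183). At an unadjusted p under 0.05 by limma there were 5 carriers, all lower, where 5.32% of all genes were lower. The intervals of Slc38a2, Slc1a4, Slc3a2 and Slc7a3 include 0. Slc6a9 (GlyT1, a glycine carrier) had the largest difference, with 7.77 and 7.60 in the Ctcfl arrays against 8.23 and 8.28 in the control arrays (-0.57, SE 0.10, 1.48-fold lower, adjusted p = 0.183, or 0.000723 with the intensity trend and robust variances). Slc7a11 (xCT, which imports cystine in exchange for glutamate) lay below the array medians on every array, at 4.45 and 4.36 in Ctcfl arrays and 4.81 and 4.92 in control arrays. Its change of -0.46 (SE 0.09, adjusted p = 0.248) had an adjusted p of 0.0971 with the trend, so it was not among the 11. Slc1a5 (ASCT2, a glutamine and neutral amino acid exchanger) read 9.04 and 8.91 with Ctcfl, against 9.37 and 9.28 in the control arrays (-0.35, SE 0.09, adjusted p = 0.347, or 0.01 with the trend). Its relative Slc1a4 had a log2 change of -0.16.

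For the cationic carriers, Slc7a1 (CAT1, the main arginine and lysine carrier of many cells) read 9.21 and 9.27 in Ctcfl arrays and 9.53 and 9.50 in control arrays (-0.28, SE 0.08, adjusted p = 0.383, or 0.0259 with the trend). Its relative Slc7a3 had a log2 change of -0.17. Slc7a5 (LAT1, which brings in leucine and other large neutral amino acids) read 9.72 and 9.69 in Ctcfl arrays and 9.87 and 10 in control arrays (-0.23, adjusted p = 0.45 by limma). Slc3a2 (4F2hc), the heavy chain that Slc7a5 and Slc7a11 both need at the cell surface, had a log2 change of -0.17, and Slc38a2 (SNAT2, a starvation-induced carrier) had a log2 change of -0.08, the smallest of the 9.

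The lists of neighbouring genes had medians nearer to 0. Of 22 measured other genes linked to ATF4, 18 had a lower mean, 11 of them without overlap (20.6% of all genes), with a median of -0.10. At an unadjusted p under 0.05 there were 6 lower (5.32% of all genes), and none passed over all genes by limma. With the intensity trend and robust variances 4 passed, all lower (1.3% of all genes): Xpot (-0.25), Herpud1 (-0.42), Slc38a1 (-0.25) and Cars (-0.29). The 3 with the smallest p were Herpud1 (-0.42, a component of endoplasmic reticulum degradation), Gpx7 (-0.39) and Jdp2 (-0.28, a zipper repressor). Among 13 measured genes grouped with eIF2 and its exchange factor eIF2B the median was 0.01. Of these, 5 were lower, 7 were higher and 1, Eif2a, had equal means. Eif2b4, the delta subunit of eIF2B, had a log2 change of 0.35, Impact, an inhibitor of GCN2, had a log2 change of -0.17 and Eif2b3 had a log2 change of -0.14. For 19 other genes of the serine, folate and methionine cycles the median was -0.04, 13 lower and 6 higher. Of these, 7 had both Ctcfl arrays below both control arrays and 0 above, where 20.6% of all genes lie each way. The smallest p there belonged to the sarcosine dehydrogenase gene Sardh (-0.42, adjusted p = 0.259 by limma). Next was the folate carrier gene Slc19a1 (-0.36, adjusted p = 0.298 by limma). Sardh and Slc19a1 were the 2 that passed with the trend (0.0104 and 0.0452), both lower (1.3% of all genes).

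Other amino acid enzymes and carriers did not lean lower. Of 19 other enzymes, 13 had a higher mean and 5 a lower one (median 0.04). Asl, argininosuccinate lyase of arginine synthesis, read 8.41 and 8.34 in Ctcfl arrays, against 7.72 and 7.83 in control arrays (0.60, SE 0.09, 1.52-fold higher, adjusted p = 0.152, or 0.000294 with the trend). Bcat1 had a log2 change of -0.26 and Oat had a log2 change of 0.34 (adjusted p = 0.0474 by limma with the trend). With the intensity trend and robust variances, 2 of these enzymes passed, Asl and Oat, both higher (1.1% of all genes). Of 20 other carriers, 9 had a lower and 11 a higher mean (median 0.01), and they held larger differences in both directions than any listed carrier. Slc43a1 (LAT3), like Slc7a5 a carrier of large neutral amino acids, read 6.15 and 5.96 in Ctcfl arrays and 5.36 and 5.39 in control arrays, a change of 0.68 (SE 0.10, 1.60-fold higher, adjusted p = 0.151, or 0.00618 with the trend). Slc1a3 (GLAST, a glutamate carrier) was the opposite, with 8.42 and 8.31 in Ctcfl arrays and 9.16 and 9.23 in control arrays (-0.83, SE 0.09, adjusted p = 0.0791, or 3.03e-06 with the trend). With the trend, 1 of the other carriers passed lower, Slc1a3 (1.3% of all genes), and 1 higher, Slc43a1 (1.1% of all genes). Slc36a1, a proton-coupled carrier of lysosomes and the cell surface, had a log2 change of 0.34.

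**Figure D5:**
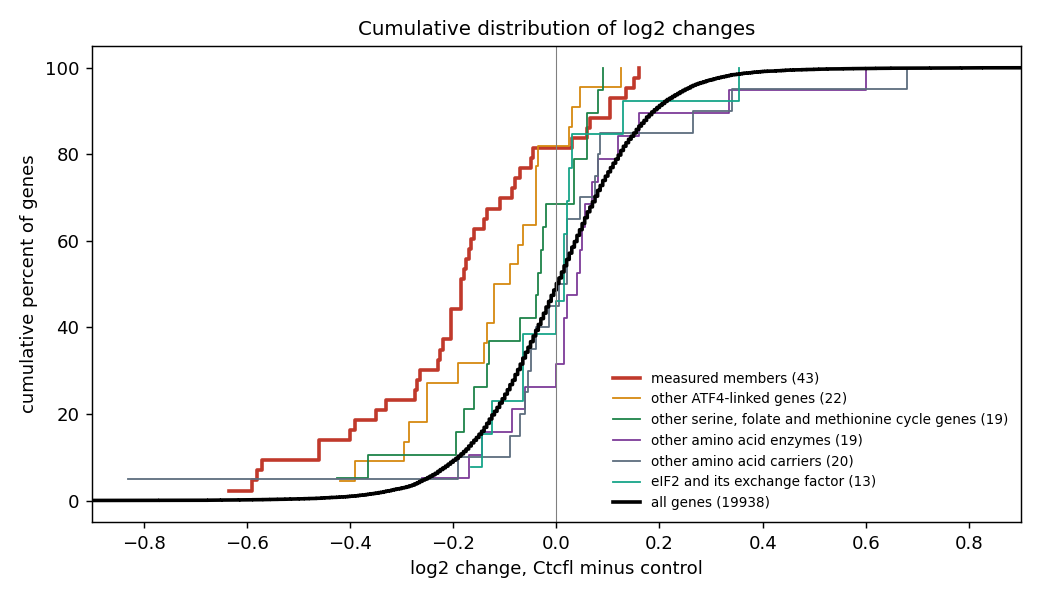
Cumulative distribution of log2 changes (Ctcfl minus control), with the 43 measured members in red, 5 lists of neighbouring pathways in thin lines and all 19938 genes in black. The vertical axis is the cumulative percent of genes; the red curve crosses 50 percent at -0.18 and the black one at 0.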

How the data were processed

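RNA from 4 samples of 1 NIH3T3 clone was measured on Affymetrix arrays, 2 with Ctcfl induced and 2 controls. The log2 values are those the authors deposited, RMA values from Expression Console, per the labels. The version and settings of that software are not given in the sources used here. Of 35511 probe sets with values, 21789 had 1 gene symbol in the platform annotation, 1621 had several and 12101 were unnamed here. The probe set with the highest mean was kept for each of 19938 genes. The groups were compared by limma 3.58.1 (R 4.3.3, lmFit with eBayes, two-sided), adjusted by Benjamini-Hochberg over all genes with a threshold of 0.05, and the members were read from that fit, which was also checked on simulated data. The simulated log2 changes were all larger in size than that of any member, so the check does not cover differences as small as theirs. The median log2 change over all genes was 0. No filter on dim genes was used, and arrays give no counts, so the number of arrays limits the precision.

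The members and the lists beside them were chosen with earlier results of these data known, so their counts are descriptions. Every measured member is named with its log2 change. Values in each array are given for up to 5 members per branch with the smallest unadjusted p and for Atf4, Ddit3, Trib3, Asns and the eIF2-alpha kinases. The plan for each list beside them was to name up to 3 genes with the smallest unadjusted p. Values in each array of Fgf21, Mthfd1l and genes outside the list and the additional compartment genes were added after the values were seen. So were the naming of Xpot, Slc38a1 and Cars and the choice of Gpt2 as the only promoter without a match. Alternatives were a fit without the dimmest 33.3% of genes, robust variances that follow intensity (statmod 1.5.0), a second quantile normalisation, the mean of probe sets, median centring, ordinary t statistics, a replicate block, each array left out and a fit over all probe sets. A crossed replicate block was added after seeing the data, because deviations of arrays with the same number correlated at -0.10 over genes.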

Additional observations from a re-analysis of the deposited data

How the results depend on the processing

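By limma, 9 genes passed over all genes, 6 higher and 3 lower. The count was 479 with an intensity trend and robust variances, where 2685 of all 19938 genes had an unadjusted p under 0.05. It was 31 (16 higher, 15 lower) with median centring and 20 without the dimmest 33.3% of genes. It was 9 (7 higher, 2 lower) with a second quantile normalisation. It was 0 with ordinary t statistics (1940 unadjusted), over all probe sets (2764 unadjusted), with a replicate block (1468 unadjusted), with a crossed replicate block (2105 unadjusted), and with any 1 array left out (0 to 0, with 1329 to 1663 unadjusted). The replicate numbers share only a number. Of the members, 11 passed with the intensity trend and robust variances and 0 under each of the other settings. At an unadjusted p under 0.05 there were 15 members, 26 with the trend, 13 with the replicate block and 9 to 12 with 1 array left out. The lowest of these counts came without control replicate 1. The count of members with both Ctcfl arrays below both control arrays was 34, and 34 to 36 with 1 array left out. Such a count can only stay or rise when an array is dropped, so this range is no check of it. The median log2 change was -0.18, from -0.20 to -0.15 with 1 array left out. Signs turned only for members near 0 when 1 array was left out: Cebpb ran from -0.17 to 0.07, with values above 0 without Ctcfl replicate 1 (0.065) or control replicate 2 (0.025). Fgf21 ran from -0.095 to 0.215, with -0.095 without Ctcfl replicate 2 and -0.015 without control replicate 2, and Nupr1 ran from -0.01 to 0.07, with -0.01 without Ctcfl replicate 2. The cause of these changes was not tested.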
